A study of Mus musculus with 2 samples.

Results

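Cd163, Lyve1, Folr2, Fcna, Cbr2, F13a1, Timd4 and Mrc1, 8 of the 32574 genes in the count tables, are scavenger, lectin and related genes known from tissue-resident macrophages. They were taken by symbol, each symbol matched 1 row, and none of them was used to assign a cell to a class. Their levels were followed in the ischaemic adductor muscle of the mouse, across macrophage states and other cell types, in wild-type (WT) mice and in mice without Apoa1bp.

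The adductors had been taken on day 7 after femoral artery ligation, which cuts off the main blood supply of the hind limb. Apoa1bp (symbol Naxe in the files) encodes AIBP, a secreted protein that binds apolipoprotein A-I and is known to promote cholesterol efflux. Ligation was done on 4 Apoa1bp-/- mice and 4 control littermates, labelled AIBP-KO and WT, so both groups share the injury and no uninjured muscle was analysed here. The strained collagenase digest of all muscle cells gave 1 droplet library per genotype, with no statement on pooling, age or sex, so no difference below has a replicate check and no p-value is given.

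Resident macrophages are found in healthy muscle, sit in the connective tissue and around vessels, and take up dead cells, iron-carrying proteins and matrix fragments through receptors on their surface. After injury, blood monocytes enter and become macrophages that differ from the residents in their genes. Cd163 takes up complexes of haemoglobin and haptoglobin, Timd4 binds phosphatidylserine on dying cells, and Lyve1 binds hyaluronan. Mrc1, the mannose receptor, and Fcna, the secreted ficolin A of the lectin pathway of complement, bind sugars. Folr2 is folate receptor beta, Cbr2 is a carbonyl reductase, and F13a1 is the A subunit of coagulation factor XIII, an enzyme that crosslinks fibrin.

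After removal of poor barcodes and of called doublets, 12351 WT cells and 8682 Apoa1bp-/- cells were kept. They held 66961852 and 73478217 unique molecular identifiers (UMIs, each counted molecule of RNA), with medians of 4169 and 6624.5 UMIs per cell. Naxe had 3347 UMIs in the WT cells and 0 in all deposited barcodes of the Apoa1bp-/- library, so this check of the labels was passed. The 2 libraries shared 43 barcode sequences. Because the knockout library was deeper per cell, levels are given as UMIs per 1000000 UMIs of a class (CPM), and shares of cells only after each cell had been reduced to 1000 UMIs. All intervals are exact 95% intervals and cover counting error only, not the spread between mice.

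Cells were assigned to classes by lists of markers that hold none of the 8 genes. The macrophage class needed at least 3 of 10 markers (among them Adgre1, Csf1r and the C1q genes) at or above their mean level, and held 4529 WT and 3031 Apoa1bp-/- cells, 36.7% and 34.9% of all kept cells. Within it, 5 states were taken from further lists: resident (11 genes found, among them Vsig4, Cd209f, Stab1 and C4b), lipid-associated (Gpnmb, Spp1, Trem2), Cx3cr1 with MHC class II, interferon and cycling. The resident state held 957 WT cells, 21.1% of macrophages (19.9 to 22.3), and 196 Apoa1bp-/- cells, 6.47% (5.62 to 7.40). The interferon state held 2.21% and 7.16% of macrophages.

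Most UMIs of the 8 genes lay in macrophages, and among the macrophage states of the WT library each gene was highest in the resident one. Lyve1 was higher still in lymphatic endothelial cells. Of their summed 45965 UMIs in WT cells, 82.5% lay in macrophages and 41.5% in resident-gated macrophages, which made up 7.75% of the cells. In the Apoa1bp-/- library 81.4% of 18525 UMIs lay in macrophages, but 14.5% in resident-gated ones. There, macrophages held only 28.9% of the 446 Lyve1 UMIs and 42.9% of the 14 Timd4 UMIs. The summed level in WT macrophages was 1616 CPM, against 49.4 CPM in fibroblasts and 43.5 CPM in satellite cells and myoblasts, classes that should not express most of these genes. Some other classes were higher in WT, at 113 CPM in Schwann cells, 240 CPM in muscle fibres, 327 CPM in NK cells and 480 CPM in neutrophils. Those levels rest on 11, 161, 64 and 46 UMIs. In WT fibroblast-gated cells most genes took shares of their summed UMIs close to those in macrophages, for example 25.9% (23.3 to 28.7) for Folr2 against 29.3%, and 19.2% (16.9 to 21.8) for F13a1 against 18.7%, while Cd163 took 6.41% (4.99 to 8.09) against 4.43%. In Apoa1bp-/- fibroblasts F13a1 took 11.9% (8.07 to 16.8) against 11.3% in macrophages. Lyve1 took 5.96% (3.29 to 9.79) against 0.856%, with 7 of its 14 fibroblast UMIs in a single cell. Mrc1 took 48.1% (41.5 to 54.7) against 39.9%. The fibroblast level is used below as a background level, and its source was not tested.

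**Figure D1:**
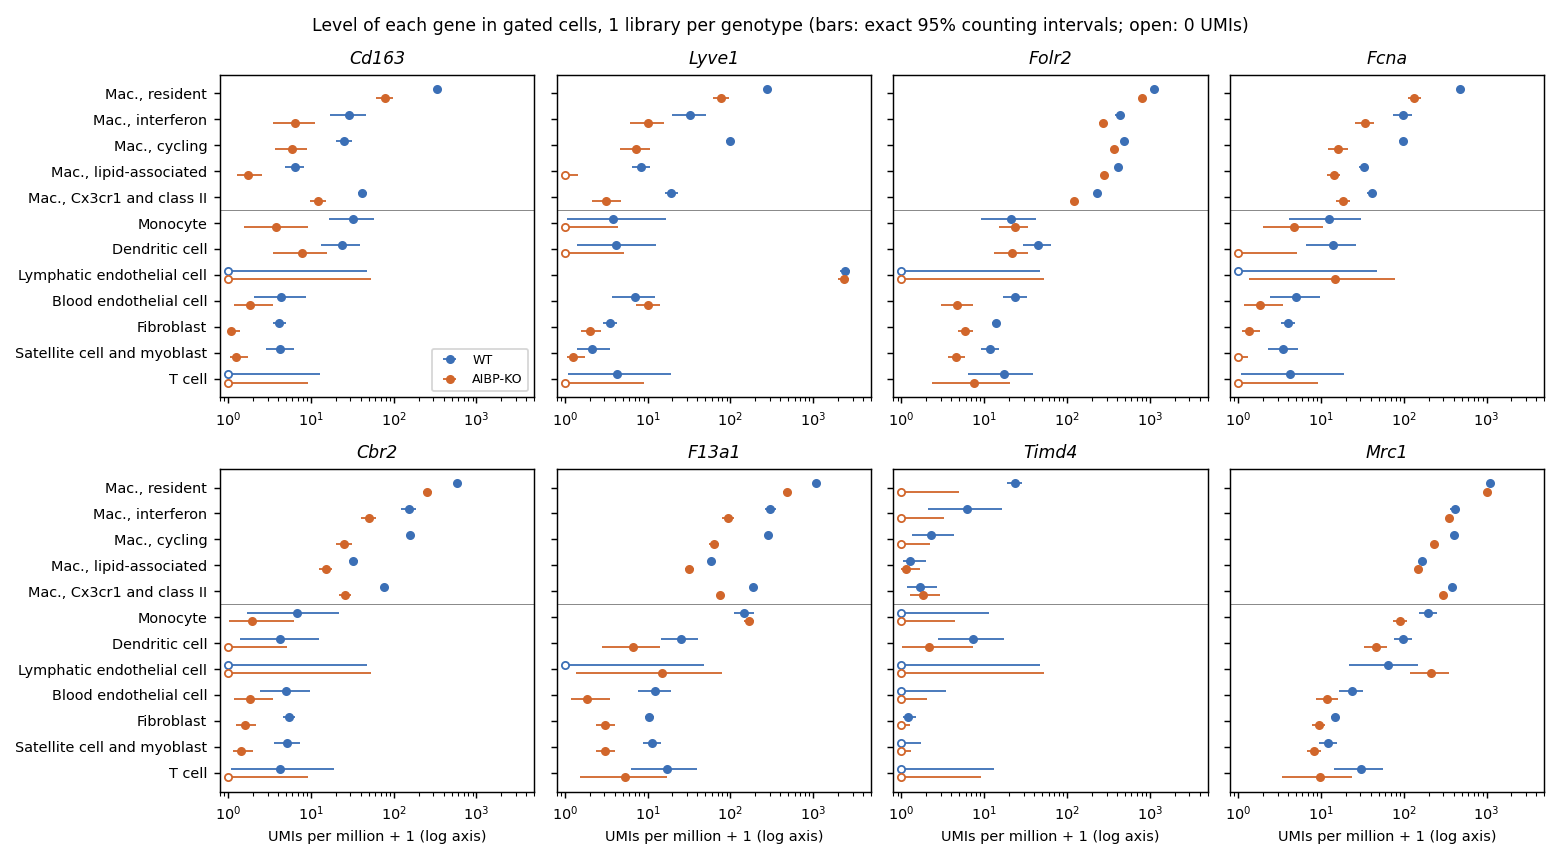
Level of each of the 8 genes as CPM plus 1 (log axis) in 5 macrophage states (above the line) and 7 other gated classes (below it), with WT in blue and AIBP-KO (Apoa1bp-/-) in orange; points are 1 library each, bars are exact 95% counting intervals, and open points are classes with 0 UMIs. The resident state was the highest of the macrophage states for every gene in WT, and Lyve1 alone was higher outside macrophages, in lymphatic endothelial cells, at 2445 CPM.

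Promoter sequence of 7 of the 8 genes was at hand from RefSeq (build GRCm38.p6), with 9 start sites. The 250 bases before each start were searched on both strands for 5 short motifs of macrophage transcription factors. The PU.1 letters GAGGAA stood in 4 of the 9, against 23.3% of 32851 mouse promoters. The MAF letters TGCTGA also stood in 4 of the 9, against 16.1%. The AP-1 letters TGANTCA stood in 1, against 6.75%, the C/EBP letters TTGCNNAA in 0, against 9.56%, and the interferon regulatory factor letters (GAAA, any 2 bases, GAAA) in 0, against 2.98%. The MAF and AP-1 letters can share bases. With such short motifs a match is a description of the sequence and not evidence of binding. The 4 promoters below are shown because the lectin genes Fcna and Mrc1 each held 3 PU.1 matches, while Cbr2 held 1 and Timd4 held only MAF matches (2). The Cd163 promoter held 0 PU.1 and 0 MAF matches. Whether such matches bear on the differences between the libraries was not tested. Capitals mark the PU.1 or MAF letters on either strand, and each sequence reads 5′ to 3′ along its gene.
Fcna promoter, chr2:25627975-25628224, minus strand: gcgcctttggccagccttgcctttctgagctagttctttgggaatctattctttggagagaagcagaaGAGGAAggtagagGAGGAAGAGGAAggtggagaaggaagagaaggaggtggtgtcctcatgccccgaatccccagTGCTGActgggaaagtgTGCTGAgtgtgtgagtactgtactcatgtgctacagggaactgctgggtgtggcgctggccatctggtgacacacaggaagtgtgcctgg
Mrc1 promoter, chr2:14229164-14229413, plus strand: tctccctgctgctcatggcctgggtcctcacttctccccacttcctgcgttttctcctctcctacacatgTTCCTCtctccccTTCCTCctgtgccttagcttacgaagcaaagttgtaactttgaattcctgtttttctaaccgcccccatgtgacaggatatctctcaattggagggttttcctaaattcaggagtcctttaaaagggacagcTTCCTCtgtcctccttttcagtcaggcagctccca
Cbr2 promoter, chr11:120732022-120732271, minus strand: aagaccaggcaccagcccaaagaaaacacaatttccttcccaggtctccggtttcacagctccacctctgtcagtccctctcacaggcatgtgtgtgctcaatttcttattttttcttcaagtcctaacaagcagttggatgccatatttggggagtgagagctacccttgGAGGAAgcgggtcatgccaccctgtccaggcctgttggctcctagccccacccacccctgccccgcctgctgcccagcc
Timd4 promoter, chr11:46810549-46810798, plus strand: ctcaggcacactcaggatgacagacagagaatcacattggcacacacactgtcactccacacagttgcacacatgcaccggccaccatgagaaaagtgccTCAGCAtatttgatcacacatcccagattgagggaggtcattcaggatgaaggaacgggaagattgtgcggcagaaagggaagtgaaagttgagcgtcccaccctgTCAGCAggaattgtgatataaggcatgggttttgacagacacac

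In macrophages as a whole, each of the 8 genes was lower in the Apoa1bp-/- library, and each ratio's interval lay below 1. Their sum was 1616 CPM in WT and 664 CPM in Apoa1bp-/- (ratio 0.411, 0.403 to 0.419). The 7 genes that reached 5 CPM did so in both libraries and were all at least 1.5 times lower, where 10.3% of 9124 macrophage genes that reached this level in either library were. Timd4 stayed under this limit in both libraries. The median log2 ratio of the 7 was -2.21, and that of all 9124 genes was -0.15 (0.5 counts added). With both libraries given the same pooled shares of the states, the summed ratio was 0.584 and 5 genes were past the limit, without Mrc1 (0.847) and Folr2 (0.673).

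The receptors for haemoglobin complexes, phosphatidylserine and hyaluronan had the lowest ratios. Cd163 stood at 71.6 CPM in WT (68.2 to 75.1), while in Apoa1bp-/- it stood at 7.84 CPM (6.73 to 9.08), a ratio of 0.110 (0.0933 to 0.128). Timd4 had 101 UMIs in the WT macrophages and 6 in the Apoa1bp-/- ones, a ratio of levels of 0.0614 (0.0220 to 0.138). Lyve1 was at 67.2 CPM and 5.68 CPM, a ratio of 0.0845 (0.0701 to 0.101). For these 3 genes the counting intervals of the libraries were far apart, although Timd4 rests on few molecules, and its ratio was 0.0211 to 0.0976 under the alternatives that moved it most. With the same pooled state shares in both libraries, Cd163 was at a ratio of 0.236 and Lyve1 at 0.228.

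The lectin genes did not behave alike. Fcna was at 118 CPM in WT (113 to 122) and 21.3 CPM in Apoa1bp-/- (19.5 to 23.3), a ratio of 0.181 (0.164 to 0.200). Mrc1 was at 428 CPM (419 to 436) and 265 CPM (259 to 272), a ratio of 0.620 (0.601 to 0.641), the highest of the 8. The intervals of the ratios of Fcna and Mrc1 lay apart.

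Among the remaining genes, F13a1 stood at 303 CPM in WT, while it stood at 75.0 CPM in Apoa1bp-/-, a ratio of 0.248 (0.235 to 0.261). Cbr2 was at 152 CPM and 32.8 CPM, a ratio of 0.216 (0.199 to 0.233). Folr2 was at 473 CPM and 256 CPM, a ratio of 0.542 (0.525 to 0.559). With the same pooled state shares in both libraries, the ratio was 0.309 for Fcna, 0.406 for Cbr2 and 0.421 for F13a1. Mrc1 and Folr2 thus formed the upper end of the ratios, and the other 6 genes lay between 0.0614 and 0.248. Folr2 overlaps Gm10602 on the opposite strand, which had 116 and 54 UMIs in macrophages, and whether counting used the strand is not given. The partner Fcnaos of Fcna had 1 UMI in each library, and Gm49144 and Gm30489, which overlap F13a1, had 0.

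The share of macrophages in which a gene was detected moved the same way at equal depth. With each cell reduced to 1000 UMIs, which left out 202 WT and 76 Apoa1bp-/- macrophages, Cd163 was detected in 6.86% of WT (6.13 to 7.66) and 1.08% of Apoa1bp-/- macrophages (0.742 to 1.53). In fibroblasts reduced in the same way, the shares were 0.418% and 0% of 3352 and 1246 cells (up to 0.296%). Lyve1 was detected in 5.15% and 0.406% of macrophages, against 0.209% and 0.161% of fibroblasts. Mrc1 was detected in 33.0% (31.6 to 34.5) and 24.6% (23.0 to 26.2) of macrophages, and in 1.22% and 0.803% of fibroblasts. The Apoa1bp-/- share of Lyve1 in macrophages rested on 12 cells, and its interval (0.210 to 0.708) overlapped that of fibroblasts (0.0194 to 0.579). By all UMIs, Lyve1 was at 5.68 CPM (4.75 to 6.75) in Apoa1bp-/- macrophages. In Apoa1bp-/- fibroblasts it was at 1.04 CPM (0.568 to 1.74), and these intervals lay apart. The Mrc1 share of Apoa1bp-/- macrophages was far above its share in fibroblasts. Before the reduction, macrophages had medians of 4254 and 6613 UMIs per cell.

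Some other lists moved in these macrophages together with the 8 genes, and others did not. Among all measured genes, 10.3% were at least 1.5 times lower in Apoa1bp-/- and 2.7% higher. Of 8 Cx3cr1 and class II markers and of 8 cycling markers, 0 passed this limit either way. Of 8 lipid-associated markers 1 was lower, and of 7 measured muscle fibre markers 2 were lower and 2 higher. Of the resident markers, which define that state, 8 of 10 measured were lower and 0 higher. Their summed level was 7027 CPM in WT and 5279 CPM in Apoa1bp-/-. Of 8 interferon markers, which also define a state, 7 were higher, summed at 375 and 870 CPM. Of 6 measured monocyte markers 3 were higher (Ly6c2, Chil3 and Hp), summed at 265 and 380 CPM. Of 8 measured fibroblast markers 7 were lower, summed at 465 and 169 CPM with none of the list at 0. Of 3 measured neutrophil markers 2 were higher, summed at 49.3 and 75.4 CPM. Of 6 erythroid markers the 4 haemoglobin genes were measured and lower, and the list summed to 133 and 14.4 CPM, with Alas2 at 0 in Apoa1bp-/-. The part of these shifts in the lower level of the 8 genes was not tested, beyond the values within states that follow.

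The resident state held fewer cells in the Apoa1bp-/- library, and the genes were lower within it as well. All 8 genes had a lower level in the 196 Apoa1bp-/- cells than in the 957 WT cells. The 11 genes that draw this gate were lower there too, summed at 14525 CPM in WT and 10956 CPM in Apoa1bp-/-. Their ratios ran from 0.0524 for Cd209d to 0.906 for Pf4. The resident-gated cells of the libraries were therefore not matched in the gate genes. Cd163 was at 336 CPM in WT (318 to 355) and 76.6 CPM in Apoa1bp-/- (59.9 to 96.4), a ratio of 0.228 (0.177 to 0.289). Lyve1 was at 280 and 76.6 CPM (0.273, 0.212 to 0.347), on 1066 and 72 UMIs. Fcna was at 481 and 134 CPM, a ratio of 0.278 (0.231 to 0.334). Among the 8 only Timd4 was lower still, with 86 UMIs in WT and 0 in Apoa1bp-/-, at least 7.08-fold lower by a floor of 3 counts.

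Mrc1 and Folr2 had the highest ratios in the same cells, and Mrc1 was nearly level. Mrc1 was at 1113 CPM in WT (1079 to 1147) and 1026 CPM in Apoa1bp-/- (963 to 1093), a ratio of 0.922 (0.859 to 0.990). Folr2 was at 1110 and 804 CPM (0.724, 0.669 to 0.783). F13a1 was at 1085 and 479 CPM, a ratio of 0.441 (0.399 to 0.486), and Cbr2 at 579 and 254 CPM, a ratio of 0.439 (0.383 to 0.502). At 1000 UMIs, Mrc1 was detected in 61.9% of 901 WT (58.7 to 65.1) and 61.4% of 189 Apoa1bp-/- resident-gated cells (54.0 to 68.4), while Cd163 was detected in 24.3% and 7.94%. The resident-gated cells of the knockout library thus held Mrc1 at close to the WT level and Cd163, Lyve1 and Fcna well below it.

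Macrophages outside the resident state also held the genes, at lower levels than the resident ones, and again at lower levels in Apoa1bp-/-. They held a summed level of 959 CPM in the WT library, against 570 CPM in Apoa1bp-/- (0.594, 0.581 to 0.608), far above the summed fibroblast level. This did not hold for each gene. Timd4 in Apoa1bp-/- was at 0.276 CPM (0.101 to 0.600), against 0 CPM (up to 0.274) in fibroblasts. Folr2 was at 349 and 232 CPM, and Mrc1 at 295 and 232 CPM. The ratios were 0.240 for Cd163, 0.101 for Lyve1, 0.349 for Fcna, 0.334 for Cbr2, 0.380 for F13a1, 0.666 for Folr2, 0.788 for Mrc1 and 0.361 for Timd4, each with an interval below 1. Timd4 rested on 15 and 6 UMIs there, with an interval of 0.115 to 0.985.

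**Figure D2:**
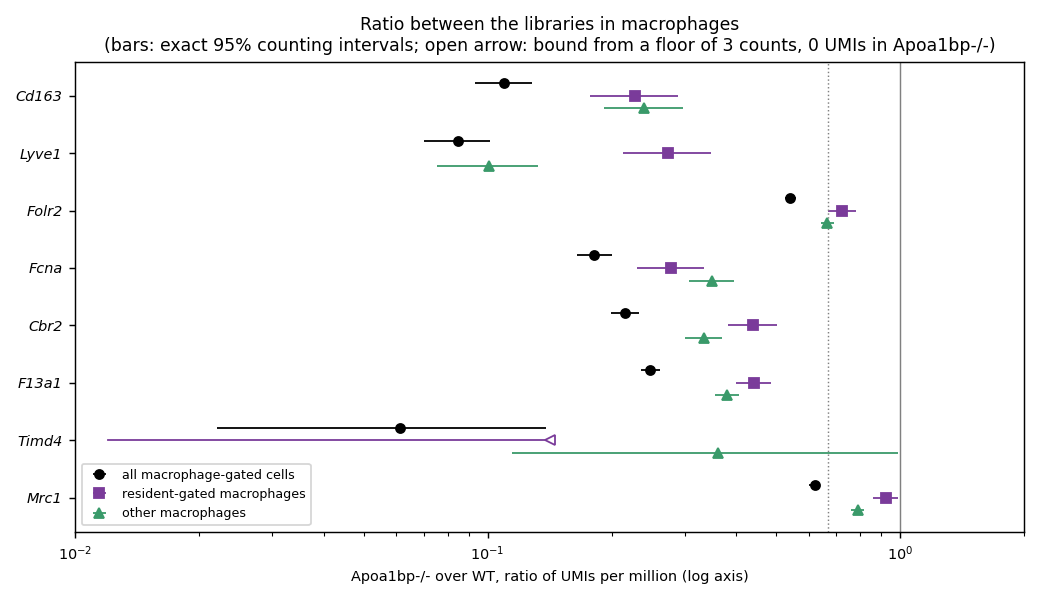
Ratio of CPM, Apoa1bp-/- over WT (log axis), for each gene in all macrophage-gated cells (black), resident-gated macrophages (purple) and other macrophages (green); bars are exact 95% counting intervals, the open arrow is the bound for Timd4 from a floor of 3 counts, with 0 UMIs in Apoa1bp-/-, the solid line is a ratio of 1 and the dotted line is 1.5 times lower. Mrc1 and Folr2 lie nearest to 1 in all 3 groups of cells, and in the resident-gated cells only these 2 genes lie to the right of the dotted line.

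In 3 of the other states, Mrc1 was again nearer to level than most of the genes. In the lipid-associated state Mrc1 was at 167 and 148 CPM (0.888, 0.819 to 0.962). Lyve1 had 55 UMIs there in 1078 WT cells and 0 in 824 Apoa1bp-/- cells. By the floor of 3 counts it was at least 19.97-fold lower. The WT level was low, however, at 7.38 CPM (5.56 to 9.60) against 2.49 CPM (1.86 to 3.27) in WT fibroblasts. A single cell held 16 of the 55 UMIs. With cells reduced to equal depth, Lyve1 was detected in 0.187% of these WT macrophages and 0.209% of WT fibroblasts. The size of this fold is therefore uncertain. In the Cx3cr1 and class II state Cd163 was at 40.7 and 11.3 CPM (0.277) and Mrc1 at 378 and 299 CPM (0.790). Timd4 had 4 UMIs in WT and 5 in Apoa1bp-/- there, a ratio of 1.27 with an interval of 0.273 to 6.40. In the interferon state F13a1 was at 303 and 93.2 CPM (0.307) and Mrc1 at 412 and 348 CPM (0.846, 0.726 to 0.989). The order of the other genes was not the same in each state. Fcna, for example, lay below F13a1 in the resident state (0.278 and 0.441) and above it in the interferon state (0.345 and 0.307), where their intervals overlap.

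In cycling macrophages Folr2, at 492 and 364 CPM (0.740, 0.685 to 0.800), had the highest ratio of the 8. Mrc1 was at 403 and 230 CPM, a ratio of 0.571 (0.520 to 0.626) that was lower than the 0.922 of the resident state. Lyve1 was at 99.1 CPM in WT (88.3 to 111), above its level in the interferon state (31.5 CPM, 18.7 to 49.8), and at 6.17 CPM in Apoa1bp-/-, a ratio of 0.0623 (0.0370 to 0.0989). The median depth of cycling cells was 8877 UMIs in WT and 13746 in Apoa1bp-/-.

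Since the resident state was cut from a number of genes on, the 8 genes were also read along the number of the 11 resident genes that a macrophage had on, meaning at least 1 UMI and a level at or above the gene's mean over cells. In the WT library every one of the 8 genes was higher with each step in this number. Mrc1 went from 127 CPM in the 751 cells with 0 or 1 such gene on to 1060 CPM in the 656 cells with 6 or 7. Cd163 went from 3.63 to 230 CPM between the same cells, and to 877 CPM in the 147 cells with 8 or more. Timd4 was concentrated at the top, with 64 of its 101 macrophage UMIs in those 147 cells.

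At an equal number of resident genes on, Mrc1 was close between the libraries and other genes were not. An equal number does not make the cells alike, since the resident genes themselves were lower in the Apoa1bp-/- resident state. With 6 or 7 on (656 WT and 123 Apoa1bp-/- cells), Mrc1 was at 1060 and 1027 CPM (0.969, 0.895 to 1.05), an interval that holds 1. Cd163 was at 230 and 102 CPM (0.443, 0.346 to 0.560), and Fcna at 446 and 161 CPM (0.361, 0.298 to 0.434). With 4 or 5 on (1301 and 656 cells), Fcna was at 94.3 and 23.9 CPM (0.253, 0.202 to 0.314) and Lyve1 at 37.7 and 3.94 CPM. With 2 or 3 on (1674 and 1348 cells), Mrc1 was slightly higher in Apoa1bp-/-, at 235 CPM against 217 CPM (1.08, 1.02 to 1.15). Only 7 Apoa1bp-/- macrophages had 8 or more on, 0.231% of them, against 3.25% in WT.

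These values depend in part on depth, since the number of UMIs in a cell bears on which genes can count as on. With the gates drawn from cells reduced to 1000 UMIs, an alternative added after the data were seen, the cells with 4 or 5 resident genes on numbered 835 and 247. Mrc1 was then at 906 and 872 CPM (0.962) and Cd163 at 169 and 65.9 CPM (0.390), so the contrast between them was seen again. With 2 or 3 on, however, Mrc1 was at 357 and 296 CPM (0.829, 0.790 to 0.870), lower in Apoa1bp-/- instead of higher.

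**Figure D3:**
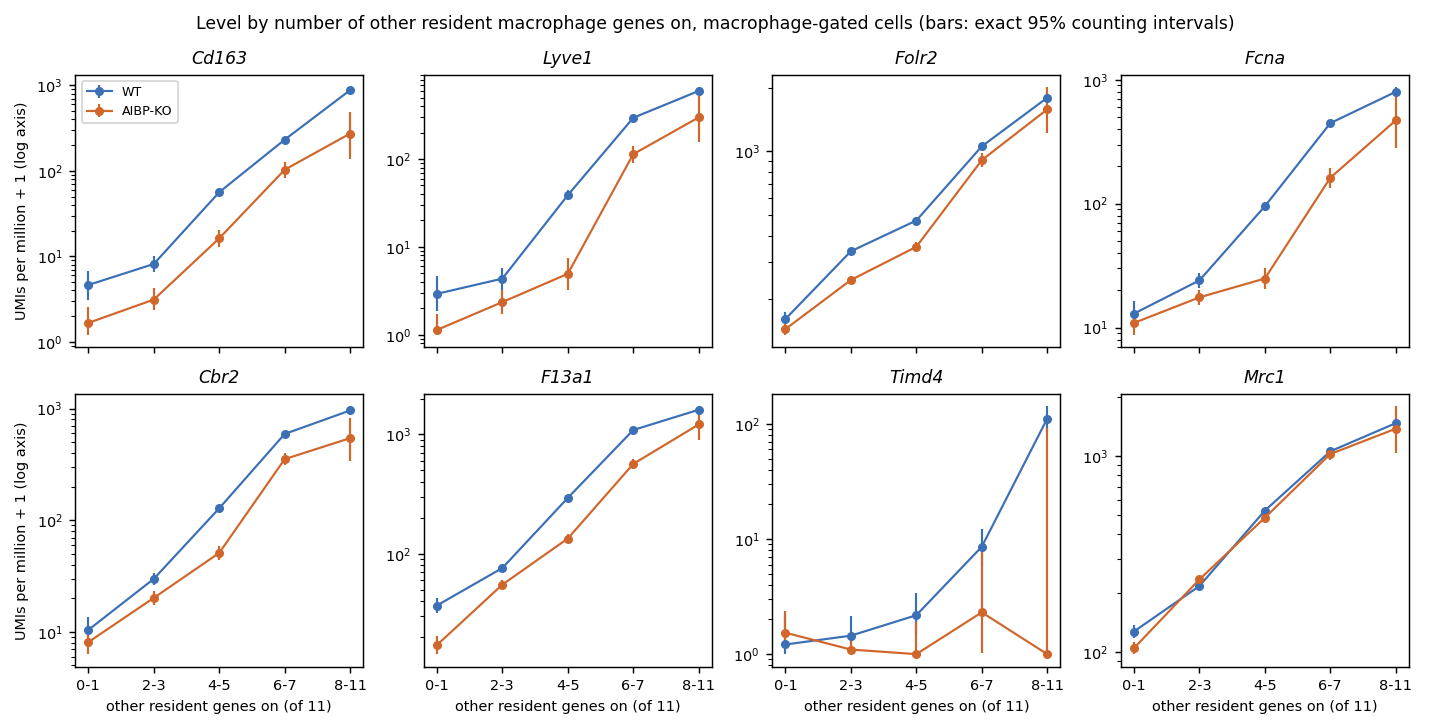
Level of each gene (CPM plus 1, log axis) in macrophages by the number of 11 other resident genes on (0 to 1, 2 to 3, 4 to 5, 6 to 7, 8 to 11), WT in blue and AIBP-KO (Apoa1bp-/-) in orange; points are 1 library each and bars are exact 95% counting intervals. The Mrc1 lines run together, at 1060 and 1027 CPM with 6 to 7 genes on, while the Cd163, Lyve1 and Fcna lines stay apart, and the last Apoa1bp-/- point is 7 cells.

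Detection of the genes overlapped in single cells. Of 4327 WT macrophages at 1000 UMIs, 28.8% (27.5 to 30.2) held UMIs of 2 or more of the 8 genes, and 10.5% (9.62 to 11.5) of 4 or more. In 2955 Apoa1bp-/- macrophages the shares were 10.8% (9.73 to 12.01) and 1.12% (0.770 to 1.56). In fibroblasts, 0.597% of WT and 0.0803% of Apoa1bp-/- cells held 2 or more, so the macrophage shares stood above those of fibroblasts. Without the reduction to equal depth the shares with 2 or more were 58.5% and 44.9%. None of the 8 genes was detected in 43.1% of WT and 61.4% of Apoa1bp-/- macrophages at 1000 UMIs.

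Lyve1 cells of the WT library carried the other genes as well. Of 223 WT macrophages with a Lyve1 UMI at this depth, 79.4% also had F13a1, 75.8% Mrc1 and 35.4% Cd163, against 18.9%, 30.7% and 5.31% of macrophages without Lyve1. Of 29 WT macrophages with Timd4, 93.1% had Mrc1 and 55.2% Cd163. In the Apoa1bp-/- library only 12 macrophages had Lyve1, and 11 of them F13a1. The resident-gated cells held 4 or more of the genes in 40.8% of WT (37.6 to 44.1) and 11.1% of Apoa1bp-/- cells (7.01 to 16.5).

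**Figure D4:**
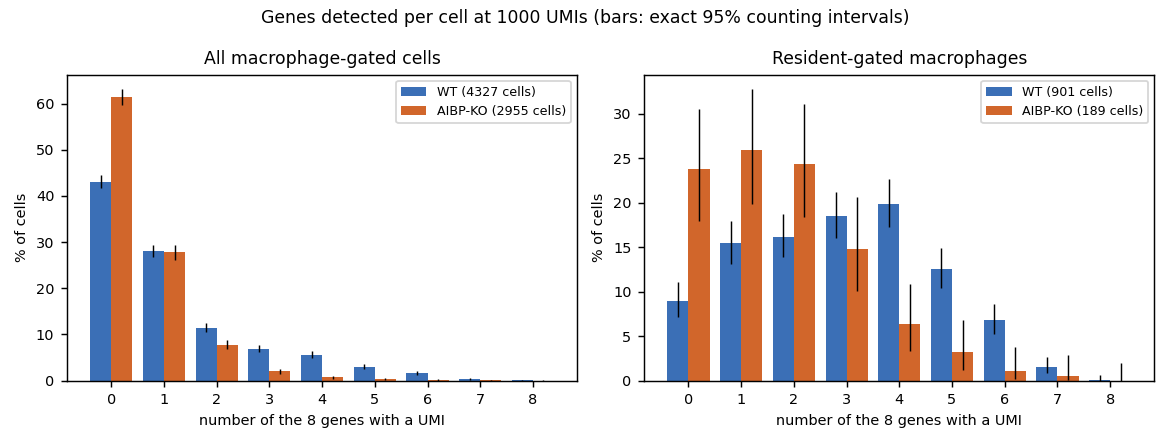
Share of cells (%) by how many of the 8 genes had at least 1 UMI, each cell reduced to 1000 UMIs, in all macrophage-gated cells (left) and resident-gated macrophages (right), WT in blue and AIBP-KO (Apoa1bp-/-) in orange; bars start at 0 and error bars are exact 95% counting intervals. Cells with none of the genes made up 43.1% of WT and 61.4% of Apoa1bp-/- macrophages, and bars for 3 genes or more are lower in Apoa1bp-/- in both panels.

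Outside macrophages, Lyve1, F13a1 and Mrc1 stood out. Lyve1, which is also a textbook marker of lymphatic vessels, was at 2445 CPM in 15 WT lymphatic endothelial cells (2112 to 2815) and 2341 CPM in 8 Apoa1bp-/- ones (1999 to 2724). The ratio was 0.957 (0.774 to 1.18), so no difference was detectable in these few cells. In macrophages the ratio was 0.0845, and the 2 counting intervals lay apart. However, single cells held 85 of the 193 WT and 80 of the 167 Apoa1bp-/- UMIs, a spread between cells that these intervals do not cover. Lymphatic cells held 9.16% of all Lyve1 UMIs in WT and 37.4% in Apoa1bp-/-. Mrc1 had 5 UMIs in these cells in WT and 15 in Apoa1bp-/-, at 63.3 and 210 CPM (ratio 3.32, 1.15 to 11.7), which rests on 15 and 8 cells.

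F13a1 and Mrc1 were the highest of the 8 genes in monocytes, which are known to carry factor XIII A. F13a1 was at 146 CPM in 68 WT monocytes (108 to 192) and 168 CPM in 173 Apoa1bp-/- monocytes (145 to 195), a ratio of 1.15 (0.842 to 1.61) whose interval holds 1. F13a1 was therefore lower in monocytes than in macrophages in WT, 146 against 303 CPM, and higher in Apoa1bp-/-, 168 against 75.0 CPM, with intervals that did not overlap in either library. Mrc1 in monocytes was at 197 CPM (153 to 249) and 89.2 CPM (72.3 to 109), a ratio of 0.453 (0.329 to 0.626). Folr2 had 7 and 24 UMIs, a ratio of levels of 1.12 (0.466 to 3.07), and the other genes had 0 to 11 UMIs in a library. The Mrc1 intervals of monocytes overlapped those of neutrophils in both libraries, at 156 CPM (87.5 to 258) in WT and 56.6 CPM (34.6 to 87.4) in Apoa1bp-/-.

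In dendritic cells the sum was at 214 and 79.7 CPM (0.373, 0.275 to 0.502), with Mrc1 at 98.0 and 45.5 CPM (0.465, 0.304 to 0.704) on 61 and 40 UMIs. In WT the sum was higher in muscle fibres (240 CPM) and NK cells (327 CPM), so the dendritic cell level was not set apart from such classes. Fibroblasts had a summed ratio of 0.353 (0.305 to 0.407), and satellite cells and myoblasts 0.319 (0.260 to 0.392). So the level in these classes was lower in Apoa1bp-/- too, beside the ratio of 0.411 for the sum in macrophages. Lyve1 had a ratio of 0.416 (0.213 to 0.762) in fibroblasts, on 52 and 14 UMIs, against 0.0845 in macrophages. However, a single cell held 7 of the 14 UMIs, a spread that the interval does not cover, so this difference is uncertain. In neutrophils, 53 WT and 179 Apoa1bp-/- cells held 46 and 40 UMIs of the 8 genes in all, too few to order the genes. Cd163 there was at 83.4 CPM in WT (36.0 to 164, 8 UMIs), an interval that overlaps that of macrophages.

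Other genes of the same pathways were taken from lists that hold none of the 8, and counted at the same limit in macrophages. Of 18 measured C-type and other lectins, 2 were lower, 1 higher and 15 neither, with a median log2 ratio of 0.17, a share of lower genes near the 10.3% of all genes. The lower ones were the galactose lectins Mgl2, at 77.5 and 24.1 CPM (0.311, 0.282 to 0.343), and Clec10a, at 131 and 46.2 CPM (0.353). Clec5a was higher, at 19.1 and 38.5 CPM (2.01, 1.79 to 2.26), and Lgals3, a lipid-associated marker with the most UMIs, was at 5002 and 5872 CPM (1.17). Of 10 measured scavenger receptors 2 were lower, Stab1 (489 and 275 CPM, 0.562), which is also a resident marker, and the fatty acid receptor Cd36 (346 and 209 CPM, 0.604). The highest ratio was that of Scarb1, at 29.7 and 35.3 CPM (1.19), and Cd68, a macrophage marker with the most UMIs, was at 952 and 921 CPM (0.967). The class A receptor Msr1 was at 97.3 and 97.2 CPM (0.999, 0.941 to 1.06). The C-type lectin genes Cd209f, Cd209d and Cd209g stand among the resident markers and not in the lectin list, and their ratios were 0.0678, 0.0578 and 0.0521. Cd209b, in the list but under 5 CPM, had 90 UMIs in WT and 0 in Apoa1bp-/-.

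Genes for clearance of dying cells were split. Of 12 measured, 4 were lower, 1 higher and 7 neither, beside 10.3% lower and 2.7% higher among all genes. Gas6, the bridging ligand of the TAM receptors and a resident marker, was at 250 and 95.2 CPM (0.380, 0.362 to 0.400), and the related ligand Pros1 at 46.2 and 22.4 CPM (0.485). Mfge8, which bridges phosphatidylserine to integrins, was at 165 and 82.4 CPM (0.499). The receptor Mertk was at 50.9 and 56.9 CPM (1.12, 1.03 to 1.21), and Cd300lf was the higher gene, at 23.6 and 35.6 CPM (1.51). Trem2, a lipid-associated marker with the most UMIs, was at 1115 and 1228 CPM (1.10). The genes past the limit below WT were these 3 bridging proteins and Stab1, and the receptors Mertk and Axl were not among them. Gas6 and Stab1 also count among the resident markers given above.

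Genes that handle haem and iron after uptake mostly did not pass the limit, with 2 lower, 2 higher and 11 neither of 15 measured, beside 10.3% lower and 2.7% higher among all genes. The iron exporter Slc40a1 was at 30.1 and 16.6 CPM (0.550, 0.484 to 0.624), and haem oxygenase Hmox1 was at 402 and 347 CPM (0.863). The ferritin heavy chain gene Fth1, with the most UMIs, was at 15236 and 19371 CPM (1.27). The haemoglobin binding protein Hp, a monocyte marker, was higher at 2.09 and 11.3 CPM (5.40, 3.96 to 7.49). Of 13 measured relatives of Folr2, F13a1 and Cbr2 in folate, coagulation and carbonyl metabolism, 1 was lower (Thbd, 0.572) and 1 higher (Cbr4, 1.63). The tissue transglutaminase Tgm2, of the enzyme family of F13a1, was at 58.5 and 47.5 CPM (0.812), and Dcxr, with the most UMIs, at 52.9 and 69.8 CPM (1.32).

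Of 20 regulators known from resident macrophages, 3 were lower, 1 was higher and 16 were neither, beside 10.3% lower and 2.7% higher among all genes. Irf4 was at 6.35 and 1.76 CPM (0.277, 0.191 to 0.396), Maf, also a resident marker, at 566 and 338 CPM (0.596, 0.580 to 0.614), and the interleukin 4 receptor chain Il4ra at 117 and 74.5 CPM (0.639). Spi1, which encodes PU.1, was at 343 and 376 CPM (1.10). Spic was higher, at 5.07 and 8.59 CPM (1.69, 1.34 to 2.15). The medians of log2 ratios were 0.08 for clearance, -0.16 for haem and iron, -0.16 for scavenger receptors, 0.08 for the relatives and -0.24 for the regulators, beside -0.15 for all genes.

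Some genes outside the lists followed the 8 across the tissue. Over 37 points, each a class or state in 1 library that shares its depth and its free RNA, the genes whose log2 level was most like the sum were P2ry6 (Pearson r = 0.93), Pltp (0.92), Wfdc17 (0.91), Hpse (0.91) and Tlr7 (0.90), among 11976 genes. The nearest single genes were Ccl8 for Folr2 and for Cbr2 (both 0.92), P2ry6 for Mrc1 (0.96), Ccl6 for F13a1 (0.89), Ccl24 for Fcna (0.88), Fxyd2 for Cd163 (0.82), Trpv4 for Lyve1 (0.82) and Pla2g2d for Timd4 (0.72). These are descriptions over points that are not independent.

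These neighbours were chosen over points of both libraries, so their ratios are given as a description. P2ry6, a nucleotide receptor near Mrc1, was at 169 and 148 CPM in macrophages (0.878, 0.838 to 0.920), against 0.620 for Mrc1. The chemokine gene Ccl24 was at 67.5 and 12.7 CPM (0.188, 0.165 to 0.213), and in resident-gated cells at 215 and 75.5 CPM (0.351, 0.271 to 0.448). Ccl8, another chemokine gene, was at 1125 and 472 CPM (0.420, 0.410 to 0.429). Tlr7, although close to the sum across classes, was higher in Apoa1bp-/- macrophages, at 54.1 CPM against 45.4 CPM (1.19, 1.10 to 1.29). Likeness across cell types was therefore no guide to the ratio between the libraries for every gene.

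Across the 4327 single WT macrophages at equal depth, the number of the 8 genes per cell went most closely with Fcgrt (r = 0.46), Clec10a (0.46), Ccl6 (0.46), Ccl8 (0.44) and Ednrb (0.43), among 7331 genes. In macrophages of the 2 libraries, the endothelin receptor gene Ednrb was at 94.8 and 10.97 CPM (0.116, 0.101 to 0.132), near the ratio of Cd163. Fcgrt, the neonatal Fc receptor, was at 274 and 136 CPM (0.495, 0.474 to 0.516).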

How the data were processed

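The deposited tables are UMI count matrices without normalization, 1 for each library. The file headers name Cell Ranger 5.0.0 as their source, whereas per the submitters' processing notes it was 2.1.1, and this was not settled. The genome build was not given in the sources used here. Coordinates are printed for the RefSeq promoters only. Barcodes with under 200 genes or over 10% mitochondrial UMIs were removed, as were barcodes called doublets by Scrublet in scanpy 1.11.5 (1486 in WT and 482 in Apoa1bp-/-, 10.7% and 5.26%).

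A marker was on in a cell with at least 1 UMI and a level per 10000 UMIs at or above its mean over the cells of both libraries. A class needed 3 markers on, and a list of another lineage at no more than 0.5 of the best list's share. A state needed 4 on. Cells of 2 lineages or of too few markers, 18.2% and 16.9%, entered no class. These numbers, and the treatment of related lineages as 1 family, were set after the data had been seen. The 8 genes and all lists were chosen with earlier results of these data known.

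UMIs were summed per class and library and given as CPM, with exact Poisson intervals, exact conditional intervals for ratios and Clopper-Pearson intervals for shares, at 95%. Genes of at least 5 CPM in either library were counted at a limit of 1.5 times. Named genes were the 8, those most like them by correlation of log2(CPM + 5), and of each list those with the largest and smallest ratio and the most UMIs, except 1 gene that is not reported here. A few list genes (Msr1, Pros1, Mfge8, Mertk, Axl, Hmox1, Tgm2, Maf, Il4ra, Spi1, Clec10a, Cd36, Cd209b, Cd209d, Cd209f, Cd209g and the monocyte markers) were named for their function or to complete a count after values were seen. Counts and intervals were tested on simulated data that held counting error only, which cannot speak to the spread between cells or mice. Python 3.11.15, numpy 2.4.6, scipy 1.17.1 and pandas 2.3.3 were used.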

Additional observations from a re-analysis of the deposited data

Results flagged for a closer look

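Barcodes left out of the main comparisons also held UMIs of the 8 genes, above the level in fibroblasts of the same library. Kept barcodes with markers of 2 lineages had a summed level of 515 CPM in WT and 147 CPM in Apoa1bp-/-. Barcodes called doublets had 586 CPM in WT and 230 CPM in Apoa1bp-/-. Both kinds of barcode lay between fibroblasts and macrophages in their level, and the Apoa1bp-/- library was the lower one in each.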

How the results depend on the processing

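The ratio of the summed genes in macrophages was below 1 under all 10 alternatives run (0.403 to 0.584, main value 0.411). It was 0.403 with cells reduced to 1000 UMIs, 0.457 with median-ratio scaling, which takes out the median log2 shift of -0.15 of all genes, and 0.584 when both libraries were given the same pooled state shares. Under 13 alternatives, 5 to 8 genes were at least 1.5 times lower. They were 5 with equal state shares, where Mrc1 (0.847) and Folr2 (0.673) no longer were, 5 with a limit of 2-fold, and 6 with median-ratio scaling, where Mrc1 was at 0.689. The share of macrophages with 2 or more of the genes depended most on depth. Its ratio, 0.376, was 0.767 without reduction to equal depth (58.5% and 44.9%), 0.267 at 500 UMIs and 0.504 at 2000 UMIs. Of 80 values for single genes under the alternatives, 23 moved beyond their counting interval and 57 did not, and none crossed 1. With equal state shares the ratio was 0.236 for Cd163, 0.228 for Lyve1, 0.309 for Fcna, 0.406 for Cbr2 and 0.421 for F13a1, over 1.5 times their main values. Lyve1 was at 0.0495 with cells reduced to 1000 UMIs, and Timd4 at 0.0976; Timd4 was at 0.0211 with 1 more macrophage marker needed, 0.0226 with gates from reduced cells and 0.0211 without lineage families. Gates from cells reduced to 1000 UMIs and gates without lineage families, both added after the data were seen, gave summed ratios of 0.414 and 0.415. No paired analysis was possible because each genotype has 1 library and no replicate numbers. Timd4, with 107 macrophage UMIs in all, is the gene most limited by depth, and a replicate left out could not be tried.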
